A study of Mus musculus with 2 samples.

Results

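E proteins and their Id inhibitors were followed in DP thymocytes, cells that carry both CD4 and CD8 and make up most of the thymus. The genes are *Tcf3*, *Tcf4*, *Tcf12*, *Id1*, *Id2* and *Id3*. They were taken by symbol, and all 6 are among the 21041 genes of the deposited table. *Tcf7l1* and *Tcf7l2*, which older literature called TCF3 and TCF4, have rows of their own in the table, so that the rows *Tcf3* and *Tcf4* are those of E2A and E2-2. The study asked whether loss of Cxxc1, a CpG-binding subunit of the Setd1 complex that trimethylates histone H3 at lysine 4, alters gene expression in these cells. RNA was sequenced from 1 WT library and 1 *Cxxc1*-deficient library. By the study's methods, WT mice carried the floxed *Cxxc1* fl/fl allele without Cre, *Cxxc1*-deficient mice were *Cxxc1* fl/fl h*CD2*-Cre, and mice were 3 to 4 weeks old unless otherwise specified. The label of the WT library reads wild type, whereas that of the deficient library reads *Cxxc1*+/-, and the library was grouped by its title. The h*CD2* promoter drives Cre from early thymocytes onward and in other immune cells, and few DP cells are left in these mice. How many mice contributed to a library is not given in the sources used here.

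E proteins are basic helix-loop-helix (bHLH) transcription factors that bind E-boxes as dimers and drive lymphocyte development. *Tcf3* encodes E2A (E12 and E47), *Tcf12* encodes HEB and *Tcf4* encodes E2-2. Id proteins have a helix-loop-helix but no basic DNA-binding region, so that they pair with E proteins and keep them off DNA. In thymocytes, HEB and E2A act together in the survival of DP cells and in rearrangement at the T-cell receptor alpha locus, and TCR signals raise *Id3* through ERK and EGR factors as cells are positively selected.

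Because Cxxc1 recognises unmethylated CpG, the 250 bases before the annotated starts are shown for *Tcf12* and *Id3*, which had the largest differences in the deposited values, and for *Id2*, whose difference in these values was smaller. After subtraction of a background level, described with the values, *Id3* was still the lowest but *Tcf12* was not below *Id2*. Capitals mark CpG. The sequences are those of RefSeq on GRCm38.p6, a later build than mm9, and their coordinates cannot be set beside those of mm9. The table holds starts for 4 of the 6 genes, and *Tcf4* and *Id1* are not among them.
*Id3*, chr4:136143572-136143821, plus strand: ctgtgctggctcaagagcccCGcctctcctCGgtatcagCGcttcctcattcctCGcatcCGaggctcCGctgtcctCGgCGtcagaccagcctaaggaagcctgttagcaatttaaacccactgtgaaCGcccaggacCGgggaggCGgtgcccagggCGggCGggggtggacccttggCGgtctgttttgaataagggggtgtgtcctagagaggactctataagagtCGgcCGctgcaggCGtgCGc
*Id2*, chr12:25096093-25096342, minus strand: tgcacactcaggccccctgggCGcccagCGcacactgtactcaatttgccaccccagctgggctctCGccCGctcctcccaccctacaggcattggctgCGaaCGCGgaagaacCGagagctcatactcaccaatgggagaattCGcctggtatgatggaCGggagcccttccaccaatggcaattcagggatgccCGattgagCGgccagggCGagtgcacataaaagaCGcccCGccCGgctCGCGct
*Tcf12*, outermost start, chr9:72111820-72112069, minus strand: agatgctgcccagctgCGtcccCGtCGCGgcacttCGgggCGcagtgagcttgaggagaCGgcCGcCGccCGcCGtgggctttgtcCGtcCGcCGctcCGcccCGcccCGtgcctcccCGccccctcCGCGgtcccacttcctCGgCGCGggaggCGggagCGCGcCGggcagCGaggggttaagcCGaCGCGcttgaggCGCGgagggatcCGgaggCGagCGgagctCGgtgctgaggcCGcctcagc
*Tcf12*, innermost start, chr9:71896097-71896346, minus strand: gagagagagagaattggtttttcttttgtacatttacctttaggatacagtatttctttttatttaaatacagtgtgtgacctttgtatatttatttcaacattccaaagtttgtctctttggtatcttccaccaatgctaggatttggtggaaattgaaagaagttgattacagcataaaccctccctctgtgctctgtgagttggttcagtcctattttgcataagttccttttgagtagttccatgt

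The windows of *Id3* and *Id2* held the same number of CpG, 18, and the same GC content, 62.8%. *Tcf3* (chr10:80433636-80433885 of GRCm38.p6) also had 18. The median over 32851 windows of all genes was 6 CpG, with quartiles of 2 and 16. *Tcf12* has 3 starts in the table over 216 kb. Both outer starts were among the most CpG-rich windows, with 38 and 39 CpG, whereas the innermost window had 0 and a GC content of 34.8%. E-boxes (CANNTG, which reads the same way on both strands) were found in 66.2% of all windows. *Id2* had 1, with the letters CAGCTG, *Tcf3* had 1 with CACTTG, each outer *Tcf12* window had 1, and the windows of *Id3* and of the innermost *Tcf12* start had 0. The motif GCGNGGGCG, searched on both strands for EGR factors, was in 4.70% of all windows and in 0 of the windows of *Id2*, *Id3*, *Tcf3* and *Tcf12*. A CCAAT box on either strand was in 33.8% of all windows, 3 times in that of *Id2* and 0 times in that of *Id3*.

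The genes lie apart in the genome (mm9, GENCODE vM1 on NCBIM37). *Tcf3* spans chr10:79872259-79896392 on the minus strand, *Tcf4* spans chr18:69503800-69847621 on the plus strand and *Tcf12* spans chr9:71692059-71959626 on the minus strand. The Id genes are short. *Id1* occupies chr2:152561987-152563146 (plus), *Id2* chr12:25778666-25780957 (minus) and *Id3* chr4:135699412-135701670 (plus). The annotation gives 14 transcripts for *Tcf3*, 15 for *Tcf4* and 4 for *Tcf12*, and a single value per gene does not separate E12 from E47 or any other isoform. No gene of the opposite strand overlaps *Tcf3*, *Tcf4* or an Id gene. Inside the span of *Tcf12* the annotation has *Rpl15-ps2* on the other strand, and whether reads were counted by strand is not given in the sources used here.

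The values are normalized expression values that the authors rounded to whole numbers. They are not read counts, the number of reads behind them is unknown, and no difference has a replicate check, each genotype having 1 library. No p-value or interval is therefore given, and a ratio compares these libraries and not the genotypes. The sum of all values was 1551994 for WT against 981677 for deficient cells, and the median is 36 in each library. Much of that median is background, since 1122 olfactory receptor genes, which thymocytes are not known to use, had a median of 22 in WT and 24 in deficient cells and reached 81 and 95. *Cxxc1* itself was listed at 91 in WT and 50 in deficient cells, a ratio of 0.549, in the direction of the label. The WT value was above every olfactory receptor, but the value in deficient cells was below their 95th percentile there, 57. By quantitative PCR the paper found its mRNA almost undetectable in deficient DP cells, and by western blot it reports loss of the protein. How much of this RNA remained cannot be read from a value within the background. *Gapdh*, at 6 and 10, does not serve as a reference. The 8 DP markers (*Cd4*, *Cd8a*, *Cd8b1*, *Rag1*, *Rag2*, *Dntt*, *Cd3e* and *Cd1d1*) had values from 183 to 20778 in WT and from 69 to 5058 in deficient cells. All 8 were lower, 7 of them by at least 2-fold, with a median log2 ratio of -1.81. Of all genes, 17.4% were at least 2-fold lower. The markers all had a mean of both libraries of at least 100, however. At such levels the share was 52.8% for means from 100 to under 300 and 77.6% for means of 300 and over. Of 4 Y-linked genes, all were at 0 in WT and between 17 and 67 in the *Cxxc1*-deficient library, so sex and genotype cannot be told apart. In such bulk RNA, fewer expressing cells and less RNA per cell cannot be told apart either.

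In *Cxxc1*-deficient DP thymocytes all 6 genes had lower values than in WT. *Id3* and *Tcf12* were lower by more than 2-fold, *Tcf3*, *Tcf4* and *Id2* by 1.49- to 1.86-fold, and *Id1* by 1.23-fold. Their median log2 ratio (*Cxxc1*-deficient to WT, each value raised to at least 1) was -0.81, against -0.20 over the 20125 genes above 0 in at least 1 library. At 2-fold, 2 of 6 were lower and 0 were higher, where 17.4% of all genes were lower and 5.89% higher. This balance over the table rested on the scaling. Given the same sum, 1108 genes were at least 2-fold lower and 4253 higher, and with an equal median of the genes whose mean reached 100 the counts were 672 and 7492.

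**Figure D1:**
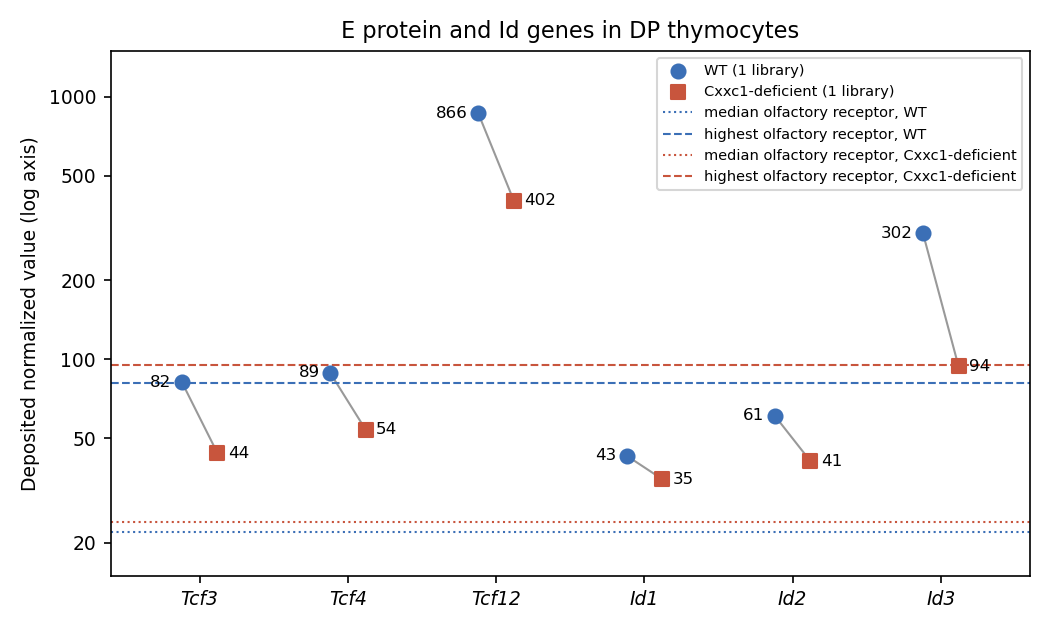
Deposited normalized values (log axis) of the 6 genes in the WT library (circles) and the *Cxxc1*-deficient library (squares), each point 1 library, with the median (dotted) and highest (dashed) olfactory receptor value of each library. *Tcf12* lies above every olfactory receptor in both libraries, and *Id1* and *Id2* lie below the highest of them in both.

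Among the E proteins, *Tcf12*, which encodes HEB, had the highest listed value. It was 866 in WT and 402 in deficient cells, a fold reduction of 2.15 and a log2 ratio of -1.11. No olfactory receptor reached it in either library. *Tcf12* ranked 117 in WT and 68 in deficient cells among all genes of the table, so that its rank rose while its value was lower. *Tcf3*, which encodes E2A, had 82 in WT and 44 in deficient cells, a log2 ratio of -0.90. In WT this was just above the highest olfactory receptor, and in *Cxxc1*-deficient cells 18.1% of the olfactory receptors had a value at least as high. *Tcf4*, which encodes E2-2, best known in plasmacytoid dendritic cells, had 89 in WT and 54 in deficient cells, a log2 ratio of -0.72. Its value in *Cxxc1*-deficient cells was matched or passed by 8.47% of the olfactory receptors. For *Tcf3* and *Tcf4* the *Cxxc1*-deficient value thus lay within the range of genes taken as silent. If that background adds equally to every value, which was not tested, a ratio near it understates a difference.

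The Id genes differed more among themselves. *Id3*, the Id gene that responds to TCR signals, had 302 in WT and 94 in deficient cells. This was a fold reduction of 3.21 and a log2 ratio of -1.68, the lowest of the 6 genes. Its WT value was above every olfactory receptor, and 1 of 1122 reached its value in *Cxxc1*-deficient cells. *Id2*, which is needed for innate lymphoid and NK cells, had 61 in WT and 41 in deficient cells, a log2 ratio of -0.57. *Id1*, a target of BMP signalling in many tissues, had 43 and 35, a log2 ratio of -0.30. Both lay within the olfactory receptor range in both libraries, where 14.8% of the receptors were at or above *Id1* in WT and 32.2% in deficient cells. For *Id2* these shares were 2.05% and 20.2%. The longest Id transcripts, at 1160 to 1278 bases, are close in length to those of the olfactory receptors, with a median of 957 bases. For the Id genes this comparison thus depends little on whether the values are per length. The longest transcripts of *Tcf3* (2950 bases), *Tcf4* (7402) and *Tcf12* (4707) are longer. For these genes the comparison, and the subtraction of the olfactory receptor median, may depend on length. *Id4*, the remaining Id gene of the genome, had 42 and 40.

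The size of the ratio followed the level of a gene over the whole table, and the 6 genes were read against genes of their own level. Levels are the mean of both libraries on the deposited scale. Of the 2066 genes with a mean from 100 to under 300, the band of *Id3*, 52.8% were at least 2-fold lower and the median log2 ratio was -1.03. In this band 222 genes, or 10.7%, had a ratio at least as low as *Id3*. Of the 406 genes with a mean of 300 and over, the band of *Tcf12*, 77.6% were at least 2-fold lower and the median was -1.45. Here 73.2% had a ratio at least as low as *Tcf12*, so *Tcf12* was less reduced than most genes of its level. *Tcf3*, *Tcf4* and *Id2* shared the band from 50 to under 100, in which 20% of 3657 genes were at least 2-fold lower and the median was -0.53. Ratios at least as low were found for 24.97% of these genes beside *Tcf3*, 36.0% beside *Tcf4* and 47.3% beside *Id2*. *Id1* was in the band from 20 to under 50, where 6.31% of 11523 genes were at least 2-fold lower, the median was 0 and 29.3% of genes had a ratio at least as low. Relative to its band, *Id3* was lower by 0.66 on the log2 scale, *Tcf3* by 0.36, *Id1* by 0.30, *Tcf4* by 0.19 and *Id2* by 0.04, and *Tcf12* was higher by 0.34.

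**Figure D2:**
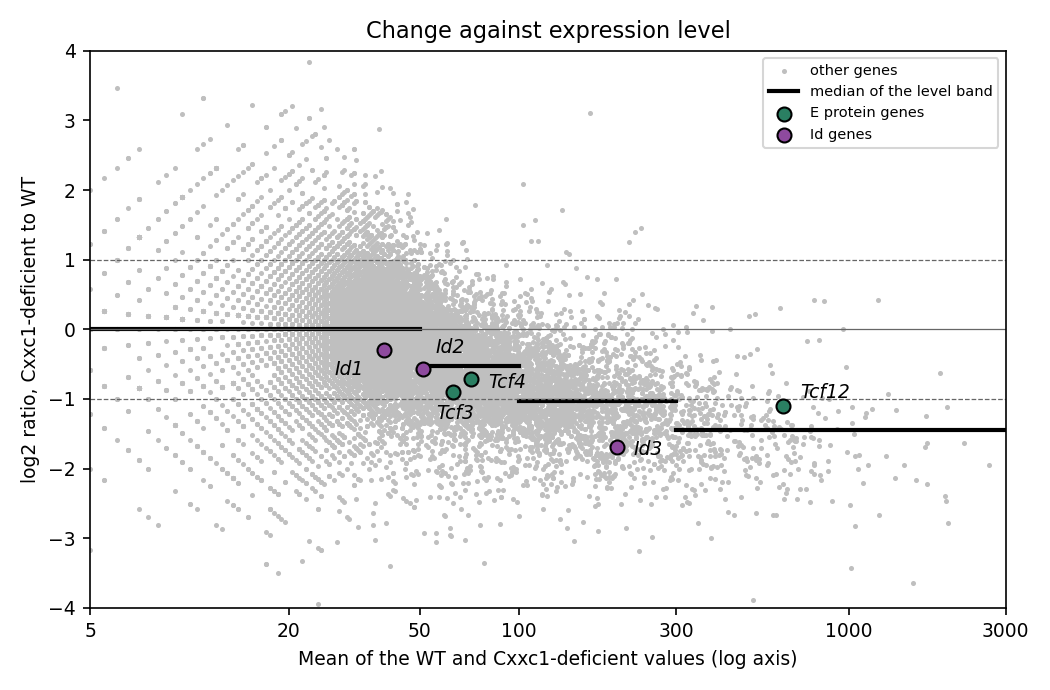
Log2 ratio of *Cxxc1*-deficient to WT (vertical axis) against the mean of both values (log axis) for genes above 0 in both libraries that fall within the axes (grey), with the median of each level band (black lines), E protein genes (green) and Id genes (purple). *Id3* lies 0.66 below the median of its band and *Tcf12* lies 0.34 above that of its own.

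The balance of E proteins to Id proteins was then compared between libraries. A constant factor on a library cancels in this comparison, and so does the length of a transcript. The mean log2 ratio was -0.91 over the 3 E protein genes and -0.85 over the 3 Id genes, a difference of -0.06. *Id1* and *Id2*, within the olfactory receptor range in both libraries, each weigh as much in it as *Id3*. The difference was 0.08 after the olfactory receptor median had been subtracted from each library, so its sign was not stable and its size was small in both cases. Between the members with the largest values, however, the ratio of *Tcf12* to *Id3* was 2.87 in WT and 4.28 in deficient cells, a factor of 1.49. Within the Id genes the ratio of *Id3* to *Id2* went from 4.95 in WT to 2.29 in *Cxxc1*-deficient cells, and within the E proteins that of *Tcf12* to *Tcf3* went from 10.6 to 9.14. After the same subtraction, *Tcf12* to *Id3* went from 3.01 to 5.40 and *Id3* to *Id2* from 7.18 to 4.12, in the directions above, whereas *Tcf12* to *Tcf3* went the other way, from 14.1 to 18.9.

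The direction of the smaller differences depended on how the libraries were scaled. Scaling to the same sum moved every log2 ratio by 0.66, and the same 75th percentile moved it by 0.39. Equal sums after removal of the 100 highest genes moved it by 0.56, and the same median over the genes whose mean reached 100 moved it by 1.00. *Id3* and *Tcf12* stayed lower under each of these scalings, with log2 ratios from -1.30 to -0.69 for *Id3* and from -0.72 to -0.11 for *Tcf12*. *Id1* was higher under all 4, up to 0.70. *Id2* was higher with the same sum (0.09) and with the median of genes of at least 100 (0.42), and *Tcf3* and *Tcf4* were higher only with the latter of these scalings (0.10 and 0.28). An equal median of the genes detected in both libraries moved the ratios by only 0.04 and turned none of these 6 around. The order of the 6 ratios, with *Id3* lowest and *Id1* highest, is the same under any constant factor. When the olfactory receptor median was subtracted, 5 of 6 genes were at least 2-fold lower, with log2 ratios of -2.00 for *Id3*, -1.58 for *Tcf3*, -1.20 for *Id2*, -1.16 for *Tcf4* and *Tcf12* and -0.93 for *Id1*. *Id3* remained the lowest, and *Tcf12* was then no longer apart from *Tcf4*.

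**Figure D3:**
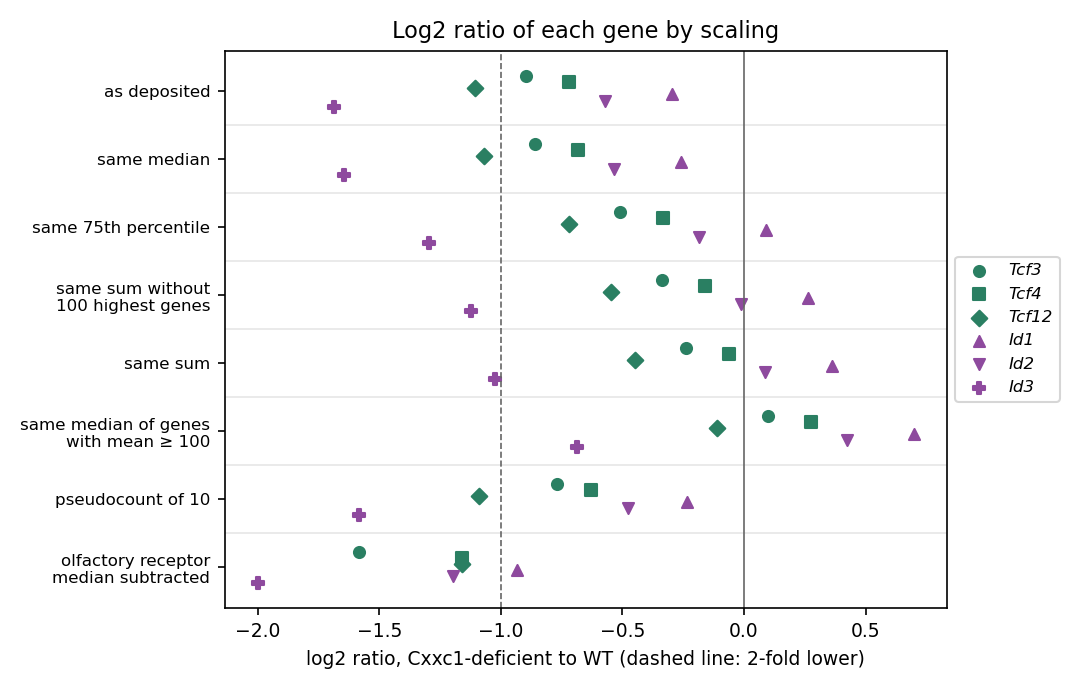
Log2 ratio of *Cxxc1*-deficient to WT (horizontal axis) of each E protein gene (green) and Id gene (purple) under 8 settings (rows), with lines at equal values (solid) and at a 2-fold lower value (dashed). *Id3* and *Tcf12* lie left of 0 in every row, whereas *Id1* lies right of 0 in 4 rows.

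Partners and cofactors of E proteins were followed in a list of 17 genes. They include the bHLH factors *Tal1* and *Lyl1*, which pair with E proteins, the LIM factors *Lmo1*, *Lmo2* and *Ldb1* that join such pairs, the ETO corepressors and the coactivators *Ep300* and *Crebbp*. Of the 17 genes, 12 were lower and 5 higher, 1 was lower by at least 2-fold and 0 were higher by as much, with a median log2 ratio of -0.12 beside -0.20 over all genes. Of all genes, 59.9% were lower, 17.4% by at least 2-fold, and 5.89% were higher by that much. Once both libraries were given the same sum, 1 of the 17 was lower, and with the median of genes of at least 100 made equal 5 were at least 2-fold higher and 0 lower. In 12 of them the mean was not above that of the highest olfactory receptor, 69. *Ldb1*, which encodes the LIM-domain-binding adaptor, had 321 in WT and 118 in deficient cells, a log2 ratio of -1.44. *Crebbp*, a histone acetyltransferase, had 398 and 308, and *Ep300*, its paralogue, had 270 and 249, with log2 ratios of -0.37 and -0.12. In their bands, 432 of 2066 genes had a ratio at least as low as *Ldb1*, 385 of 406 as *Crebbp* and 1933 of 2066 as *Ep300*. *Crebbp* and *Ep300* turned positive under the scalings to the same sum, with or without the 100 highest genes. They did so too under those to the same 75th percentile and to the genes of at least 100. *Cbfa2t3*, an ETO-family corepressor, had 105 and 88.

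Genes known as targets of E proteins in developing lymphocytes had differences in both directions. Of 13 genes, 9 were lower and 4 higher, 6 passed 2-fold downward and 2 passed it upward, with a median log2 ratio of -0.84, where 17.4% and 5.89% of all genes did so. With equal sums the counts turned to 2 downward and 4 upward. Of these genes 8 had a mean of at least 100, levels at which most genes of the table were lower. *Rag1*, which encodes the catalytic subunit of the V(D)J recombinase, had 20778 in WT and 5058 in deficient cells, a log2 ratio of -2.04. Its partner *Rag2* had 1219 and 405, a log2 ratio of -1.59. *Dntt*, which encodes the terminal transferase that adds nucleotides at the joints, had 1859 and 172, a log2 ratio of -3.43. *Cd4*, which encodes the coreceptor of MHC class II recognition, had 2728 and 1257, a log2 ratio of -1.12. These 4 genes were in the band of 300 and over, which held 406 genes. In that band 60 genes had a ratio at least as low as *Rag1*, 169 as *Rag2*, 3 as *Dntt* and 293 as *Cd4*. *Cd4* was thus less reduced than most genes of its level. *Notch1* and *Notch3*, receptors of the pathway that commits progenitors to the T lineage, were the genes at least 2-fold higher. *Notch1* had 124 in WT and 326 in deficient cells, a log2 ratio of 1.39, and *Notch3* had 56 and 167, a log2 ratio of 1.58. In their band, from 100 to under 300, 0.581% of genes were at least 2-fold higher. Both stayed more than 2-fold higher under every scaling and after subtraction of the olfactory receptor median. The other genes with higher values were *Hes1*, a target of Notch as well, with 28 and 52, and *Socs3*, an inhibitor of cytokine signalling, with 66 and 98. *Ptcra*, which encodes the pre-TCR alpha chain and is a target of both Notch and E proteins, had 79 and 44. These last genes were named after their values had been seen. *Hes1* and *Ptcra* lay within the olfactory receptor range in both libraries, which reached 81 in WT and 95 in deficient cells. The WT values of *Notch3* and *Socs3* lay within it too.

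**Figure D4:**
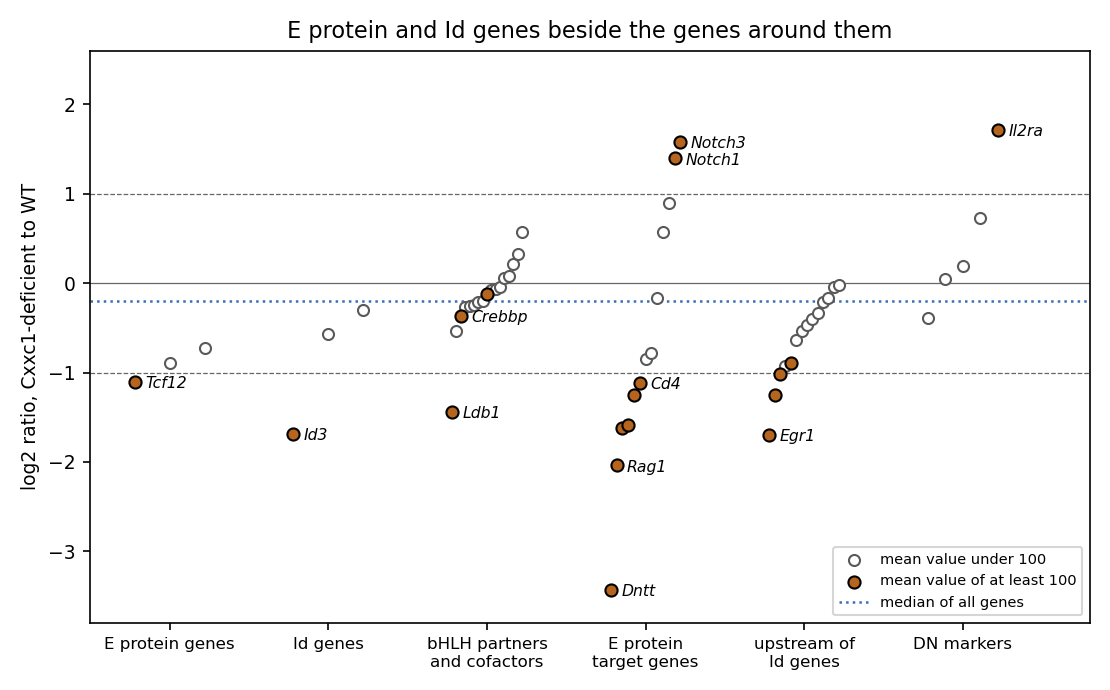
Log2 ratio of *Cxxc1*-deficient to WT (vertical axis) of each gene in the lists on the horizontal axis, with genes of a mean value of at least 100 filled and others open, the median of all genes (dotted) and 2-fold lines (dashed). *Id3*, *Egr1* and *Ldb1* lie more than 2-fold lower, and *Notch1*, *Notch3* and *Il2ra* lie more than 2-fold higher.

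Upstream of the Id genes, a list of 14 genes held the ERK cascade with the EGR factors and the BMP receptors with their SMADs. All 14 were lower, beside 59.9% of all genes, and the median log2 ratio was -0.50. In 7 of them, however, the mean was not above that of the highest olfactory receptor, 69. By at least 2-fold 3 of 14 were lower, a share near the 17.4% of all genes. *Egr1*, an immediate-early gene of TCR signalling that acts on *Id3*, had 263 in WT and 81 in deficient cells. Its log2 ratio was -1.70, and in its band, from 100 to under 300, 216 of 2066 genes had a ratio at least as low. *Egr2* and *Egr3*, the related factors, were near the background, with 63 and 62 for *Egr2* and 61 and 44 for *Egr3*. *Smad5*, which carries BMP signals, had 157 and 66, and *Smad4*, the common SMAD, had 192 and 103, with log2 ratios of -1.25 and -0.90. With the libraries scaled to the same sum, 5 of the 14 genes were lower, and *Egr1* was still lower by 1.04 on the log2 scale.

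E protein and Id genes change with the stage of a thymocyte, and markers of stages and cells are given beside them. The DP markers, with their median log2 ratio of -1.81, were lower, at levels where most genes of the table were lower. Of 5 DN markers, 4 were higher and 1 lower, but 4 of the 5 had a mean not above that of the highest olfactory receptor, and 1 was at least 2-fold higher. Of all genes, 37.2% were higher, and 5.89% were higher by at least 2-fold. *Il2ra*, which encodes CD25 of the DN2 and DN3 stages, had 63 in WT and 207 in deficient cells, a log2 ratio of 1.72, while *Kit* had 35 and 36. Of 5 markers of mature SP cells, 4 were higher, and 4 of the 5 had a mean not above that of the highest olfactory receptor. Lists of B cells, plasmacytoid dendritic cells, NK and other innate cells, macrophages and stroma, 36 genes in all, had sums from 232 to 375 in WT and from 188 to 264 in deficient cells. The mean was at or below that of the highest olfactory receptor for 32 of them. The highest of each list were *Cd79b* (74 in WT and 43 in deficient cells), *Ly6d* (205 and 88), *Gzma* (102 and 54), *Itgam* (101 and 107) and *Pecam1* (119 and 66). *Krt8* was at 0 in *Cxxc1*-deficient cells, and no other gene of these lists was at 0 in either library. The part that a shift in stage or in cell types has in the differences of the E protein and Id genes was not tested.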

How the data were processed

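RNA was prepared by the authors from DP thymocytes with TRIzol, and mRNA libraries were made with the NEBNext mRNA kit and sequenced on an Illumina HiSeq. The submitters' processing notes name CASAVA 1.8.2, Bowtie 1.0.1 and Partek, and reads were mapped to mm9 with uniquely mapped reads kept. Each deposited value is a score, that is, an expression level per gene normalized and rounded to a whole number by the authors. Its unit and the gene annotation are not given in the sources used here. The depth is unknown, so no interval is given. The median WT value was 28 among the genes with the shortest transcripts (median 1029 bases) and 50 among those with the longest (5381 bases) when genes were divided into 4 classes by length, a rise smaller than that of length.

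Ratios were computed from the deposited values with a floor of 1. With 1 library per genotype no test was run, and members were read against all genes and against genes of 5 level bands. Named genes were the 6 members, *Cxxc1*, *Gapdh*, the 4 genes of highest mean in each pathway list, those at least 2-fold higher, and the marker of highest mean of each list, of which 2 are not reported here. The members and lists were chosen with earlier results of these data known. Alternatives were 5 scalings, subtraction of the olfactory receptor median, pseudocounts of 1 and 10, thresholds of 1.5- and 3-fold and filters on low values. The ratio functions were tested on simulated data. Python 3.11.15, numpy 2.4.6, pandas 2.3.3 and matplotlib 3.10.9 were used.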

Additional observations from a re-analysis of the deposited data

How the results depend on the processing

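The count of E protein and Id genes at least 2-fold lower was 2 as deposited. It was 1 when both libraries were given the same sum, 75th percentile, or sum after removal of the 100 highest genes, 0 when the genes whose mean reached 100 were given the same median, and 5 after subtraction of the olfactory receptor median. It was 4 at 1.5-fold and 1 at 3-fold. The same counts over all genes were 3502 as deposited and 1108, 1762, 1296, 672 and 7527 in these 5 settings, in that order, 2312 with a pseudocount of 10, 6415 at 1.5-fold and 1267 at 3-fold, so the members moved with the table. Of the 17 partners and cofactors, 1 was at least 2-fold lower as deposited and 0 with both sums, with the median of genes of at least 100 and at 3-fold. Of the 13 target genes, 6 were lower as deposited, and 2 with the same sum and with that median. Of the 14 genes upstream of the Id genes, 3 were lower as deposited, 1 with both sums and with the 75th percentile, 0 with that median, 6 after the subtraction and at 1.5-fold, and 1 at 3-fold. The changes with scaling and threshold follow from the factor applied or from the threshold itself, and for the subtraction the cause was not tested. No member was at least 2-fold higher in any of these settings. The difference between E protein and Id genes stayed at -0.06 with both pseudocounts and was 0.08 after the subtraction. A constant factor cancels in it, so the scalings could not change it. No paired analysis was possible because there is 1 library of each genotype. The unknown depth limits the values near the olfactory receptor range, which are those of *Id1* and *Id2* in both libraries and of *Tcf3*, *Tcf4* and, with 1 receptor above it, *Id3* in *Cxxc1*-deficient cells.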

Other observations

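Genes that share the Tcf name with the E proteins but belong to other families had their own values. They were named after their values had been seen. *Tcf7*, which encodes the HMG-box factor TCF1, had 5826 in WT and 4461 in deficient cells, a log2 ratio of -0.39, and its relative *Lef1* had 459 and 234, a log2 ratio of -0.97. *Tcf7l1* and *Tcf7l2*, the other HMG-box members, had 26 and 40 in WT and 38 and 49 in *Cxxc1*-deficient cells, within the olfactory receptor range. *Tcf20*, a nuclear coactivator outside both families, had 361 and 157, a log2 ratio of -1.20, and *Tcf25* had 274 and 172, a log2 ratio of -0.67. Among bHLH factors of mesoderm, *Tcf15* had 35 and 15 and *Tcf21* had 20 and 34.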
